A study of Mus musculus with 4 samples.

Results

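A set of 10 secreted or immune-related genes, out of 54532 genes in the deposited table, was followed in mouse cells with and without calumenin. They were selected by gene symbol and encode lipocalin 2 (Lcn2), lysozyme (Lyz2), the complement component C3, the chemokines Ccl2, Ccl7, Cxcl1, Cxcl5 and Cxcl12, the cytokine interleukin 6 (Il6) and the growth factor Csf1. RNA sequencing had been done on 2 WT libraries (genotype label Calu-WT) and 2 Calu-KO libraries of cells labelled mouse primary lung fibroblasts. The sample titles use the letters KD for the Calu-KO libraries, whereas the protocol text calls the cells calumenin-KO. The sources used here give neither the way Calu was targeted nor the age of the animals nor a treatment. Since nothing in them ties the libraries to different mice or dishes, p-values cover the spread between these samples alone, which may be technical.

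Calu, the targeted gene, stood at 178 and 177 FPKM in WT and at 14.9 and 10.9 FPKM in Calu-KO (FPKM, fragments scaled by gene length and library size). Libraries held 15635448 to 16510048 reads. The FPKM of Calu-KO replicate 2 imply a library size of about 14612200, under its 16038560 reads. In the other libraries the implied size lay above the reads. Relative to them, levels in Calu-KO replicate 2 are therefore higher than read totals would give. Mitochondrial genes took 4.0% of the reads of Calu-KO replicate 2 and 2.43% to 2.53% of those of the other 3 libraries. Of 12 fibroblast markers 7 reached 1 FPKM in a library, among them Col1a1, Col1a2, Pdgfra and Vim, whereas the proteoglycan genes Dcn and Lum had no reads in any library.

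Fibroblasts release chemokines, which draw leukocytes along a gradient, and cytokines such as interleukin 6 that act through shared receptor chains. Csf1 keeps macrophages alive through its receptor Csf1r. Lipocalin 2 binds bacterial siderophores and so withholds iron, lysozyme cuts bacterial cell walls, and C3 is the central protein of the complement cascade. Many of these genes are known targets of the transcription factors NF-κB and C/EBP.

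Promoter sequence was available for 7 of the 10 genes (Lcn2, Lyz2, Cxcl1, Cxcl12, Il6, Csf1 and C3; RefSeq, GRCm38.p6). The windows cover 250 bases before the RefSeq start, and 4 of them are shown. Lcn2 and C3 are the genes with the largest fold differences, Il6 holds all 3 motifs searched, and Cxcl1 shows the NF-κB match without a C/EBP match. They are printed 5′ to 3′ on the strand of the gene, without bases annotated as UTR in GENCODE M21. Capitals mark matches to the C/EBP motif TTNNGNAA (Lcn2, C3 and the second match in Il6), the NF-κB consensus (Cxcl1 and the third match in Il6) and the AP-1 motif TGANTCA (the first match in Il6), searched on both strands.
Lcn2 (chr2:32387798-32387989, minus strand): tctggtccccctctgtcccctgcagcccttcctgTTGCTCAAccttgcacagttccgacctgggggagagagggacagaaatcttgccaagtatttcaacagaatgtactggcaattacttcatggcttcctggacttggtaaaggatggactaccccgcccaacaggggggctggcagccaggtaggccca
C3 (chr17:57228137-57228386, minus strand): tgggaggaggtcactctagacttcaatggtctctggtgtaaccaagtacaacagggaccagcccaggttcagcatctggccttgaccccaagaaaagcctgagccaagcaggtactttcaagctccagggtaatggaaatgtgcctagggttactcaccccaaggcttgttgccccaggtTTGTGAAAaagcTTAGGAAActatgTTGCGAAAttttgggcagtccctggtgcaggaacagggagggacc
Cxcl1 (chr5:90890995-90891240, plus strand): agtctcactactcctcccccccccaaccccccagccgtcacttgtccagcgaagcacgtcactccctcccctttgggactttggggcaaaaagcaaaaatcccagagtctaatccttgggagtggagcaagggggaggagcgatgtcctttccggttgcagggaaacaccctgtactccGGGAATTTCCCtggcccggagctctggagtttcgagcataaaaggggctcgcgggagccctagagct
Il6 (chr5:30012864-30013113, plus strand): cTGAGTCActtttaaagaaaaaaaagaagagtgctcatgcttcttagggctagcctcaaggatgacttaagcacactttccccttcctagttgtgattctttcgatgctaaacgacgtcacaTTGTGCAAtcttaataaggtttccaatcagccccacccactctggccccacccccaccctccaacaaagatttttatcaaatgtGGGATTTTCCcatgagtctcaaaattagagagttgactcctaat

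The NF-κB consensus was found in 3 of the 7 windows (Cxcl1, Il6 and Csf1) and in 3.90% of all 32851 promoter windows of that length. In Cxcl1 it was matched on both strands, 1 base apart, and the overlapping matches are printed as 1 run of capitals. The C/EBP motif was found in 4 of the 7 (Lcn2, Lyz2, Il6 and C3), but also in 36.8% of all windows, and the C3 window held it at 3 places, the last of them matched on both strands. AP-1 was matched in 1 of the 7 (Il6) and in 6.75% of all windows. These are matches of letters and not measured binding sites. The RefSeq start of Lcn2 lies 513 bases inside the gene as the deposited table bounds it, so its window is not upstream of that gene model.

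Of the 10 genes 7 had a mean of at least 1 FPKM and were tested, and 3 of the 7, Lcn2, Lyz2 and C3, were lower in Calu-KO (limma on log2(FPKM + 1), two-sided, Benjamini-Hochberg adjusted over 11885 genes). The same call was made for 1.83% of all tested genes. No gene of the 7 was called higher, against 0.942% of all tested genes. At an unadjusted p under 0.05 limma gave 6 lower and 0 higher, where 12.7% of all tested genes were lower and 12.0% higher. The limma-voom fit on recovered reads called 3 of the 7 lower and 0 higher, against 3.95% and 3.04% of all tested genes. All 7 log2 changes were negative, with a median of -0.70 against 0.01 for all tested genes. In 6 of the 7 both Calu-KO libraries lay below both WT libraries, but so they did for 29.7% of all tested genes. The reverse held for 0 of the 7 and for 32.0% of all tested genes. Without Calu-KO replicate 2, the library with the most mitochondrial reads, Lcn2, Lyz2 and C3 had adjusted p-values of 0.00715, 0.0102 and 0.0124 (limma). That fit has 1 Calu-KO library and called 1170 genes lower over the whole table against 217 with both, so p-values were lower there in general, and the part of library quality in the results was not tested. With no filter on low values none of the 10 was called. The 10 genes were chosen with earlier results of these data known, and C3 passed the filter only through its WT level. These counts therefore describe the genes and are not a test of the group.

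Lcn2 (ENSMUSG00000026822, chromosome 2, 32384633 to 32388252, mm10), the siderophore-binding lipocalin, stood at 10.3 and 11.4 FPKM in WT and 1.96 and 1.38 FPKM in Calu-KO. The groups were far apart, and the Calu-KO libraries kept 18.1% and 12.7% of the WT mean. The log2 change was -2.16 ± 0.16 (SE; adjusted p = 0.0161, limma), from 10.9 ± 0.804 to 1.67 ± 0.409 FPKM (SD, n = 2 each). Behind these levels were 442 and 498 WT reads against 87 and 53 from Calu-KO. Of the 3 genes called lower, Lcn2 alone passed with either WT library left out, at an adjusted p of 0.0202 and 0.0225.

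C3 (ENSMUSG00000024164, chromosome 17, 57203970 to 57228136) stood at 3.97 and 4.40 FPKM in WT and at 0.667 and 0.625 FPKM in Calu-KO. Since both Calu-KO levels lay under 1 FPKM, C3 passed the filter for testing only through WT. Both Calu-KO libraries sat at nearly the same level, 15.9% and 14.9% of the WT mean. The ratio of means was 6.47-fold, as large as for Lcn2 at 6.49-fold, but the log2 change with 1 FPKM added was -1.65 ± 0.15 (adjusted p = 0.0254, limma), since this scale understates changes of low genes. With a pseudocount of 0.1 FPKM the log2 changes were -2.52 for C3 and -2.65 for Lcn2. C3 did not pass without WT replicate 1 (adjusted p = 0.0653, limma) or without WT replicate 2 (0.0961).

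Lyz2 (ENSMUSG00000069516, chromosome 10, 117277331 to 117282321), a lysozyme made in bulk by macrophages, stood at 6.59 and 7.23 FPKM in WT and at 1.71 and 1.25 FPKM in Calu-KO. The groups did not overlap, and the Calu-KO libraries kept 24.7% and 18.1% of the WT mean. The log2 change was -1.68 ± 0.15 (adjusted p = 0.0254, limma). Its call too was lost without WT replicate 1 (adjusted p = 0.0522, limma) or WT replicate 2 (0.0781). Behind it were 142 and 158 WT reads against 38 and 24 from Calu-KO. Lyz1, its close paralog, was listed with no reads in any library, and since no source used here says how reads matching both were handled, the level of Lyz2 is uncertain.

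Lyz2 is also used as a macrophage marker, so the levels of 20 other macrophage genes are given beside it. Summed over the list they came to 11.18 and 10.98 FPKM in WT and to 6.45 and 5.69 FPKM in Calu-KO. Only Cd68 and Cd14 reached 1 FPKM, whereas Adgre1, Itgam, Mrc1, C1qa, C1qb, C1qc and Cd52 had no reads in any library. Cd68 stood at 4.32 and 4.79 FPKM in WT and 2.40 and 2.78 FPKM in Calu-KO (adjusted p = 0.0888, limma). Cd14 stood at 4.90 and 4.83 FPKM in WT and 3.46 and 2.44 FPKM in Calu-KO (adjusted p = 0.136, limma). Under the filter, Mpeg1 had 39 and 31 WT reads against 4 and 4 from Calu-KO, and Fcgr1 0 and 11 against 8 and 3. These macrophage genes were picked for naming after their values were seen. The part of such cells in the difference of Lyz2 was not tested, and in bulk RNA fewer cells of a type and less RNA per cell cannot be told apart. Neutrophil genes, 12 in the list, summed to at most 0.479 FPKM in any library, and none reached 1 FPKM.

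**Figure D1:**
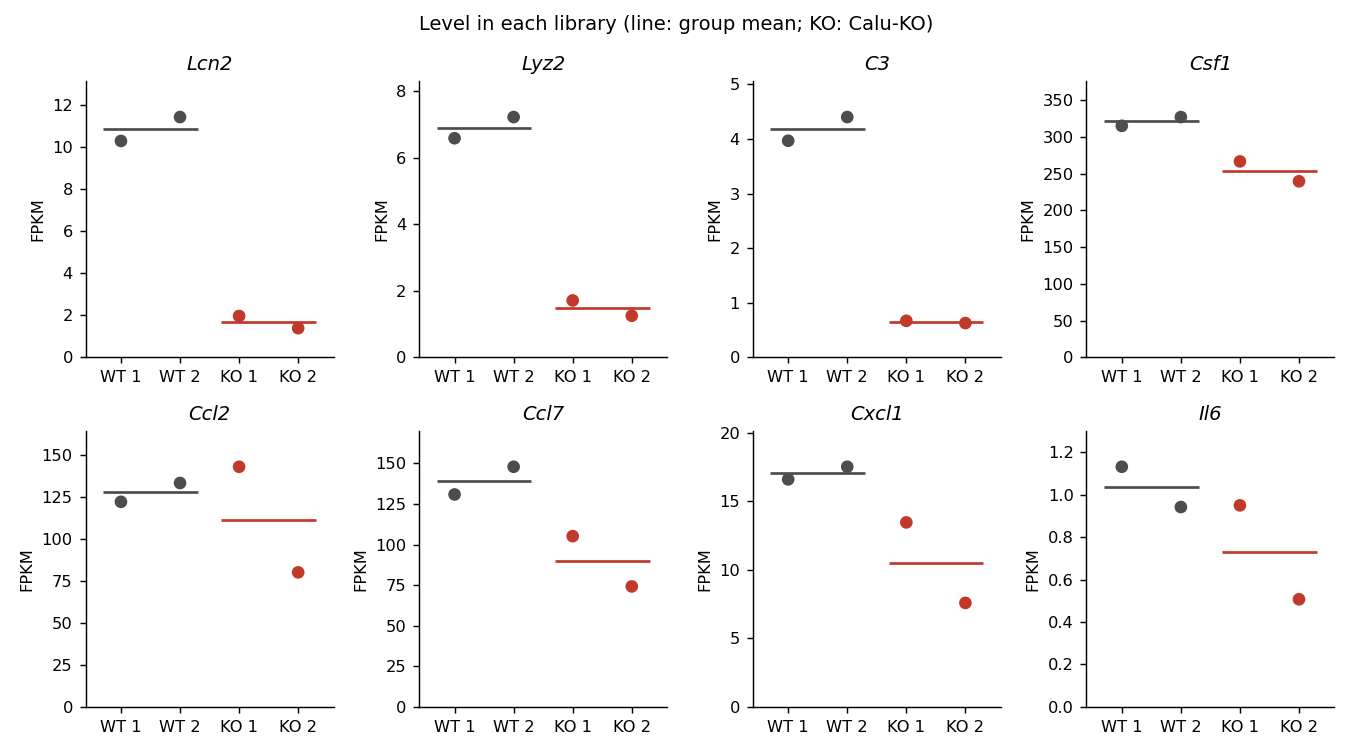
Level in FPKM of the 8 genes with reads, 1 panel per gene with its own axis from 0, in WT replicates 1 and 2 (grey) and Calu-KO replicates 1 and 2 (red), with a line at each group mean. Lcn2, Lyz2 and C3 are low in both Calu-KO libraries, whereas for Ccl2 Calu-KO replicate 1, at 143 FPKM, lies above both WT libraries.

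Csf1 (ENSMUSG00000014599, chromosome 3, 107741048 to 107760469), the macrophage growth factor, had the highest level of the 10 genes, above 99.2% of tested genes in WT. It stood at 315 and 327 FPKM in WT and at 267 and 239.7 FPKM in Calu-KO. The groups did not overlap, but the log2 change of -0.34 ± 0.12 did not pass (adjusted p = 0.177, limma). Its receptor gene Csf1r, a macrophage marker, stood at 0.150 and 0.210 FPKM in WT and at 0.0605 and 0.0981 FPKM in Calu-KO, under the filter for testing. Il34, the other ligand of that receptor, stood at 5.86 and 5.69 FPKM in WT and 6.97 and 4.86 FPKM in Calu-KO (adjusted p = 0.969, limma). It was picked for naming after its values were seen.

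Ccl2 and Ccl7, which both draw monocytes through Ccr2, lie next to each other on chromosome 11 with 8258 bases between them. Ccl2 (ENSMUSG00000035385, 82035571 to 82037453) stood at 122 and 133 FPKM in WT and at 143 and 80.1 FPKM in Calu-KO. The 2 Calu-KO libraries lay on either side of WT, and the log2 change of -0.25 ± 0.28 was smaller than its error (adjusted p = 0.601, limma). Without Calu-KO replicate 2 it was 0.16, and without Calu-KO replicate 1 it was -0.66.

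Ccl7 (ENSMUSG00000035373, 82045712 to 82047525) stood at 131 and 148 FPKM in WT and at 105 and 74.2 FPKM in Calu-KO. Its groups did not overlap, but the log2 change of -0.65 ± 0.20 did not pass (adjusted p = 0.142, limma). Within a library the ratio of Ccl7 to Ccl2, both per length, was 1.07 and 1.11 in WT and 0.736 and 0.927 in Calu-KO. The other 4 CC chemokine genes of the cluster were near or at 0: Ccl12 and Ccl8 had no reads, Ccl11 had 12 reads in WT replicate 2 alone, and Ccl1 had 4 in WT replicate 1 alone.

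Cxcl1 (ENSMUSG00000029380, chromosome 5, 90891241 to 90893115), a neutrophil attractant, stood at 16.6 and 17.5 FPKM in WT and at 13.5 and 7.59 FPKM in Calu-KO. Calu-KO replicate 2 was much the lower, at 44.5% of the WT mean against 78.9% in replicate 1. The log2 change of -0.70 ± 0.26 did not pass (adjusted p = 0.189, limma). Cxcl1 was the only gene of the 7 CXC genes at this place with a mean of at least 1 FPKM. Cxcl2 and Cxcl3, its close relatives, had at most 3 reads and 1 read in a library.

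Cxcl5 (ENSMUSG00000029371, chromosome 5, 90759360 to 90761624), another neutrophil attractant of that cluster, had no reads in any library, and 3 reads would have given 0.0952 to 0.110 FPKM. Cxcl12 (ENSMUSG00000061353, chromosome 6, 117168535 to 117181367), the ligand of Cxcr4 and a chemokine that stromal cells commonly make, also had no reads, with 3 reads worth 0.0217 to 0.0251 FPKM. No difference between the groups could be looked for in either gene at this depth.

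Il6 (ENSMUSG00000025746, chromosome 5, 30013114 to 30019981) stood at 1.13 and 0.942 FPKM in WT and at 0.950 and 0.507 FPKM in Calu-KO. Calu-KO replicate 1 lay between the WT libraries and replicate 2 below both. The mean over the 4 libraries was under 1 FPKM, so Il6 was not tested. Its reads were 45 and 38 in WT against 39 and 18 in Calu-KO, and the exact 95% Poisson intervals of the 2 Calu-KO counts, 27.7 to 53.3 and 10.7 to 28.4, cover counting error only.

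By level in WT the order was Csf1, Ccl7, Ccl2, Cxcl1, Lcn2, Lyz2, C3 and Il6, with Cxcl5 and Cxcl12 at 0. Neighbours in that order did not overlap between the WT libraries, except Ccl7 and Ccl2. In Calu-KO Ccl2 came before Ccl7 with overlapping libraries, the libraries of Lcn2 and Lyz2 overlapped as well, and Il6, at a mean of 0.729 FPKM, came before C3 at 0.646 with overlapping libraries. In all 7 tested genes Calu-KO replicate 2 was lower than replicate 1. The share of all tested genes for which this held was not determined, so it is not read as a trait of these genes.

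**Figure D2:**
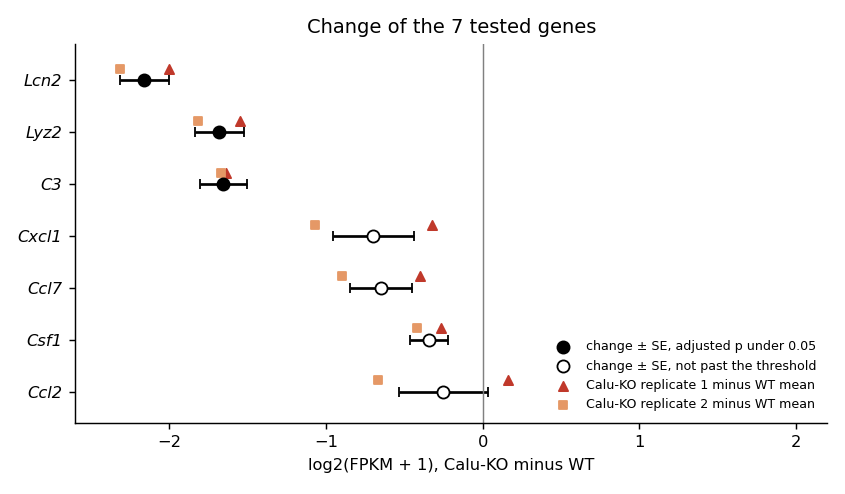
Difference in log2(FPKM + 1), Calu-KO minus WT, for the 7 tested genes, with bars of 1 SE and filled circles for an adjusted p under 0.05 (limma). The triangle and the square give each Calu-KO library minus the WT mean, which for Ccl2 lie on either side of 0, at 0.16 and -0.66.

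Receptors of these ligands were mostly low. Ccr2, the receptor of Ccl2 and Ccl7, stood at 0.154 and 0.196 FPKM in WT and at 1.12 and 0.800 FPKM in Calu-KO. Its groups did not overlap, with 17 and 22 WT reads against 128 and 79 from Calu-KO, a ratio of means of 5.49, but its mean was under the filter and it was not tested. Cxcr4 stood at 0.676 and 0.266 FPKM in WT and at 0.851 and 0.492 FPKM in Calu-KO, and Ackr3, a scavenger of Cxcl12, at 1.11 and 0.701 FPKM in WT and at 0.654 and 0.797 FPKM in Calu-KO. For both the groups overlapped. Cxcr2, the receptor of Cxcl1 and Cxcl5, Ackr1, a scavenger of many chemokines, and Slc22a17, a lipocalin 2 receptor, had no reads in any library.

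Of the interleukin 6 receptor chains, Il6ra stood at 2.79 and 2.35 FPKM in WT and at 1.83 and 1.39 FPKM in Calu-KO, below WT in both libraries (adjusted p = 0.190, limma). The shared signalling chain Il6st stood at 32.7 and 33.9 FPKM in WT and at 30.8 and 41.9 FPKM in Calu-KO, with overlapping groups (adjusted p = 0.712, limma). C3ar1, a receptor of a C3 fragment, had 5 and 10 WT reads against 5 and 0 from Calu-KO.

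**Figure D3:**
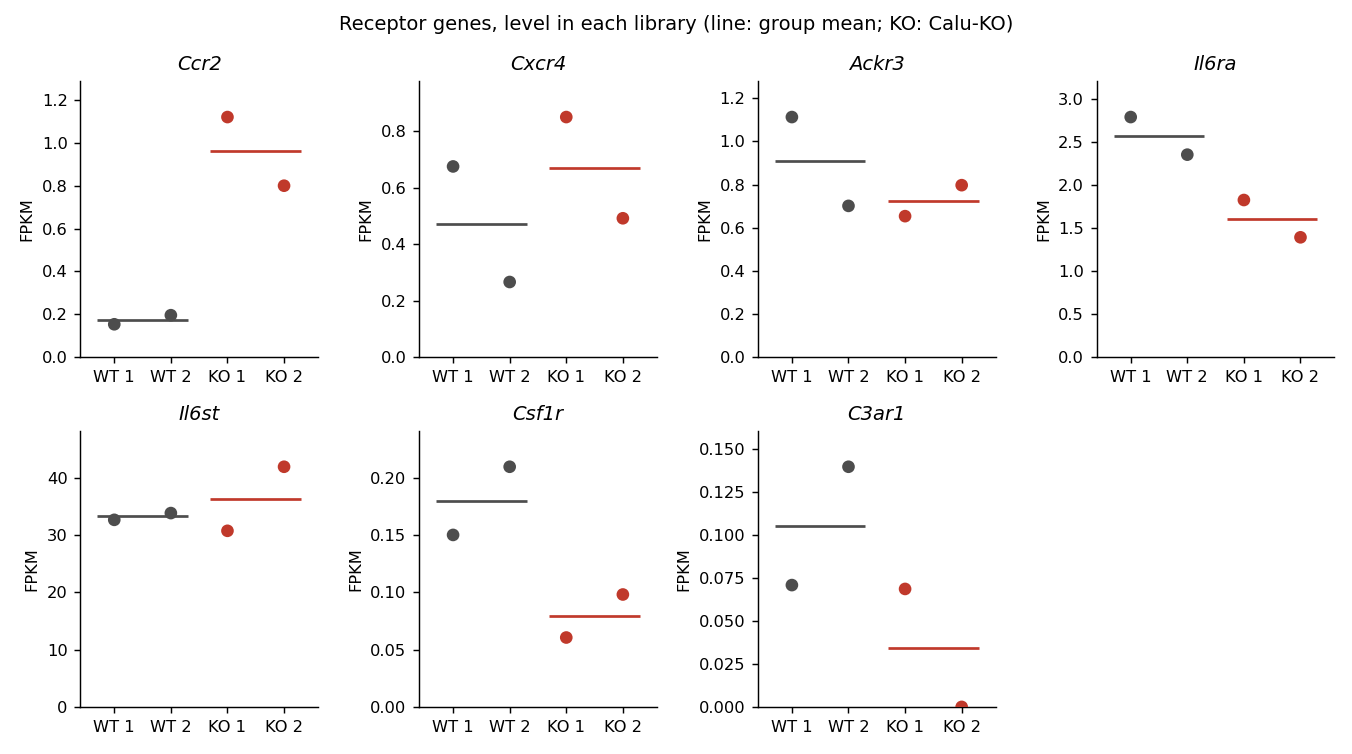
Level in FPKM of 7 receptor genes, 1 panel per gene with its own axis from 0, in WT (grey) and Calu-KO (red), with a line at each group mean. Ccr2 is higher in both Calu-KO libraries, at 1.12 and 0.800 FPKM, and Il6ra is lower in both, whereas Cxcr4, Ackr3 and Il6st overlap.

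Of 28 complement genes, 11 were tested, of which C1rl was called higher and C3 lower, against 0.942% and 1.83% of all tested genes. C1rl, a protease related to the complement protease C1r, stood at 5.58 and 5.32 FPKM in WT and at 10.6 and 10.7 FPKM in Calu-KO (log2 change 0.85 ± 0.11, adjusted p = 0.0362, limma). Its call was lost when libraries were scaled by total reads (adjusted p = 0.0622, limma) and without either WT library (0.314 and 0.344). The median log2 change of the 11 was -0.16. C2, a protease of the classical pathway, stood at 2.997 and 3.47 FPKM in WT and at 1.28 and 1.59 FPKM in Calu-KO, and was not called (adjusted p = 0.0773, limma). C1ra and C1s1, proteases that start the same pathway, lay the other way. C1ra stood at 5.61 and 5.74 FPKM in WT and 9.9997 and 8.17 FPKM in Calu-KO (adjusted p = 0.0945, limma), and C1s1 at 4.63 and 5.69 FPKM in WT and 9.15 and 7.11 FPKM in Calu-KO (adjusted p = 0.141, limma). Both have close copies in the mouse genome, so their levels are uncertain. These 3 proteases were picked for naming after their values were seen.

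Of 20 acute-phase and innate secreted genes 9 were tested, and none was called besides Lcn2 and Lyz2 (limma). Over all tested genes 1.83% were called lower. The limma-voom fit called 5 of the 9 lower, against 3.95% of all tested genes. At an unadjusted p under 0.05 were 7 of the 9, against 24.8% of all tested genes (limma). All 9 had a negative log2 change, as did 5860 of all 11885 tested genes. Their median was -0.68, against 0.01 for all tested genes. Lcn2 and Lyz2 among them were chosen with earlier results of these data known. Lbp and Orm1 passed the filter only through WT, at Calu-KO means of 0.545 and 0.775 FPKM, so both had to be lower. Both were picked for naming after their values were seen. Slpi, a protease inhibitor of mucosal surfaces picked for naming after its values were seen, stood at 9.52 and 10.5 FPKM in WT and at 5.21 and 3.77 FPKM in Calu-KO (adjusted p = 0.0556, limma). Of 20 other cytokine genes 6 were tested, with 5 negative log2 changes and a median of -0.67, against 0.01 for all tested genes. An unadjusted p under 0.05 was found for 4 of the 6, against 24.8% of all tested genes (limma). Both counts include Tnf, which passed the filter only through WT, at a Calu-KO mean of 0.924 FPKM. Tnf was picked for naming after its values were seen. Only Tgfb1, a main profibrotic ligand, was called, and it was lower. Tgfb1 stood at 9.59 and 9.15 FPKM in WT and at 4.55 and 4.25 FPKM in Calu-KO (log2 change -0.94 ± 0.11, adjusted p = 0.0331, limma). Its call was lost without WT replicate 1 (adjusted p = 0.295, limma) or WT replicate 2 (0.240).

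No gene was called among 4 tested CC chemokines, 2 tested CXC, CX3C and XC chemokines, 1 tested chemokine receptor, 4 tested colony-stimulating factors and related ligands or 16 tested genes of the interleukin 6 family and its signalling (limma). Of these 27 genes 9 had an unadjusted p under 0.05, as did 24.8% of all tested genes. In the interleukin 6 list limma-voom called 3 of the 16 genes higher, against 3.04% of all tested genes. Robust eBayes, eBayes without trend, a minimum of 10 reads and the replicate number as a block called 1 gene each higher. Over the whole table these fits called 89 to 181 genes higher. The other fits on all 4 libraries called none of the list higher. Lifr, the receptor chain for leukemia inhibitory factor, stood at 1.66 and 1.35 FPKM in WT and at 3.75 and 4.72 FPKM in Calu-KO, with a log2 change of 1.06 ± 0.17 and an adjusted p of 0.050002 (limma), just over the threshold. Osmr, the oncostatin M receptor chain, stood at 16.8 and 17.3 FPKM in WT and 26.1 and 34.7 FPKM in Calu-KO (adjusted p = 0.0808, limma). Socs3, a feedback inhibitor of this signalling, stood at 6.34 and 6.31 FPKM in WT and 12.3 and 9.73 FPKM in Calu-KO (adjusted p = 0.0798, limma). These 3 genes were picked for naming after their values were seen. The median log2 change was -0.26 for the CC chemokines and 0.08 for the interleukin 6 list. In the latter 9 log2 changes were positive and 7 negative.

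None was called, either, among 23 tested upstream receptors and adaptors, 17 tested NF-κB and C/EBP factors and inhibitors and 13 tested other NF-κB targets (limma). Of these 53 genes 17 had an unadjusted p under 0.05, a share to be read against the 24.8% of all tested genes. The limma-voom fit called 1 of them higher and 5 lower, against 3.04% and 3.95% of all tested genes in that fit. Their medians, 0.04, 0.00268 and -0.08, lay near the 0.01 of all tested genes. Among the 13 other targets 6 log2 changes were positive and 7 negative. Under the filter, and so not tested, Nos2 stood at 0.858 and 0.764 FPKM in WT and 0.134 and 0.0931 FPKM in Calu-KO. Ptgs2, also not tested, stood at 0.613 and 0.618 FPKM in WT and 0.0775 and 0.120 FPKM in Calu-KO. Both of these targets were picked for naming after their values were seen. Rela, a main activating subunit of NF-κB, stood at 40.2 and 39.1 FPKM in WT and at 39.6 and 41.9 FPKM in Calu-KO (adjusted p = 0.833, limma). Rela, Cebpb and Cebpd, the last 2 being C/EBP factors of the acute-phase response, were picked for naming after their values were seen. Cebpb stood at 56.5 and 56.2 FPKM in WT and at 36.3 and 15.7 FPKM in Calu-KO, the second library much the lower (log2 change -1.20 ± 0.38, adjusted p = 0.151, limma). Cebpd stood at 2.66 and 2.80 FPKM in WT and at 1.29 and 1.005 FPKM in Calu-KO (adjusted p = 0.0781, limma).

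**Figure D4:**
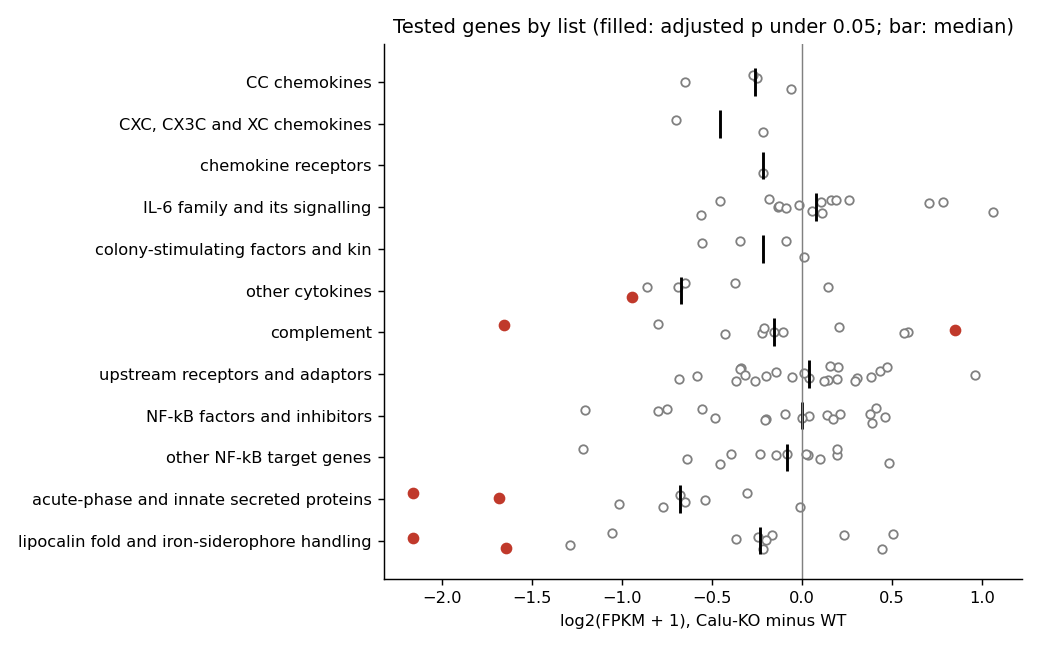
Difference in log2(FPKM + 1), Calu-KO minus WT, of each tested gene in 12 lists, with a bar at the median of the list and filled points for an adjusted p under 0.05 (limma). The filled points are Lcn2, Lyz2, C3, C1rl, Tgfb1 and Fabp4, and all points of the acute-phase list lie below 0. In that list Lbp and Orm1 passed the filter for testing only through WT.

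Genes with the profile nearest to each of the called genes were found over the 4 libraries, as the Euclidean distance between centred log2(FPKM + 1) values among tested protein-coding genes. Nearest to Lcn2 were Slc16a11, a monocarboxylate transporter family gene (distance 0.106), Hmga1b (0.179) and B4galnt1, a ganglioside synthase (0.214). Nearest to Lyz2 were Cyp4f40 (0.0244), Bok, a BCL2 family gene (0.114), and Trp53i11 (0.126). Nearest to C3 were Gstk1 (0.0281), Col3a1, a fibrillar collagen chain (0.0916), and Hapln4 (0.106). With 1 FPKM added, near profiles need not share a fold difference. Gstk1 and Hapln4 had no reads in either Calu-KO library, and Col3a1 was 3.25-fold lower against 6.47-fold for C3. Cyp4f40 was 9.67-fold lower against 4.67-fold for Lyz2. Slc16a11, B4galnt1, Cyp4f40, Trp53i11, Gstk1 and Hapln4 had Calu-KO means under 1 FPKM and passed the filter only through WT. Shared regulation was not tested.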

How the data were processed

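Per the labels' protocols, paired-end reads from an Illumina NovaSeq instrument were aligned with HISAT2 2.0.5, and per the submitters' processing notes the build was mm10. The authors deposited FPKM for 54532 genes, 1 column per library, with gene length and coordinates. The read counter, strand setting and annotation: not given in the sources used here. Reads per gene were recovered from FPKM and gene length, with 100% of values whole within 0.001 reads. Gapdh, which has many near-identical copies in the genome, had 129 to 268 reads, so genes with such copies may read low.

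Groups and replicate numbers came from the sample descriptions. Genes whose 4 libraries averaged 1 FPKM or more were tested on log2(FPKM + 1) with limma 3.58.1 in R 4.3.3 (eBayes with trend), threshold 0.05. The smallest p of an exact permutation test on 2 against 2 libraries is 0.333. The mean chi-square per gene between replicates was 3.90 in WT and 56.8 in Calu-KO, so neither pair was counted as 1 library. The medians were lower, 1.22 in WT and 9.23 in Calu-KO. The fit takes a shared variance per gene for both groups, although their spreads differ. The 10 genes, 12 gene lists and 7 marker lists were chosen with earlier results of these data known. Named genes were the 10, Calu, their receptors and close relatives, up to 4 called genes per list and 3 nearest profiles per called gene of the 10. Others are marked in the text.

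The fit was tested on simulated data. With the spread of each real group, taken as the same for all its genes, the share of false calls stayed under the threshold. With an equal spread in all libraries it was above it, also with a minimum of 10 reads, so calls near the threshold are to be read with caution. A minimum of 10 reads was then added as an alternative, after the data were seen.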

Additional observations from a re-analysis of the deposited data

How the results depend on the processing

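Over 14 alternatives (13 for Lyz2 and C3, which are under a filter of 5 FPKM) the log2 change ran from -2.696 to -2.0 for Lcn2, -2.21 to -1.55 for Lyz2 and -2.68 to -1.59 for C3. Lcn2 passed in 13 of 14, Lyz2 and C3 in 10 of 13. With no filter on low values 0 genes were called higher and 0 lower, and 0 of the 10 genes lower (limma, 24462 genes; 3886 at an unadjusted p under 0.05). With a filter of 5 FPKM 130 genes were lower, and 1 of the 10, since Lyz2 and C3 were not tested. Of all tested genes, 112 were higher and 217 lower. Scaling by total reads gave 45 higher genes, 22.8% of calls against 34.0%. The median log2 change of all genes was then -0.09 against 0.01. The limma-voom fit on recovered reads gave 361 higher and 469 lower, and a minimum of 10 reads, chosen after seeing the data, 171 higher. It left out 326 tested genes, of which 10 had been called. Leaving out 1 library gave 10 to 2943 higher and 41 to 2835 lower genes, and 1 to 7 of the 10 genes lower. All 7 tested passed only without Calu-KO replicate 1, and 4 without Calu-KO replicate 2. Such a fit takes the spread of the single remaining library from the other group. The log2 change of Ccl2 reversed to 0.16 without Calu-KO replicate 2 and was -0.66 without Calu-KO replicate 1. Voom counted 43.5% of its calls as higher. The causes were not tested. With the replicate number as a block 181 genes were higher, and Lcn2, Lyz2 and C3 remained the only called genes of the 10. Same-numbered libraries did not deviate together (r = 0.0153 across genes), so the block is not taken as a pairing. Of the list counts 7 were above 0, and 58 of their 98 values under the alternatives stayed within 1.5 times. With 24 to 158 reads a library in Lyz2 and 18 to 45 in Il6, counting error limits what smaller differences could be seen.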

Other observations

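Lipocalin 2 belongs to a fold family of carriers of small lipids and also touches iron handling, and 12 of 21 genes of these groups were tested. Lcn2 and Fabp4 were called lower and none higher, against 1.83% and 0.942% of all tested genes. Of the 12 log2 changes 3 were positive, as were 6025 of all 11885. Fabp4, a fatty acid-binding protein of fat cells and macrophages, stood at 12.4 and 12.6 FPKM in WT and at 4.16 and 2.62 FPKM in Calu-KO (log2 change -1.64 ± 0.19, adjusted p = 0.0316, limma). Its call was lost when libraries were scaled by total reads (adjusted p = 0.0559, limma) and without WT replicate 1 (0.0717) or WT replicate 2 (0.0796). The ferritin genes Fth1 and Ftl1, which encode the iron store, were not called and, like Plvap among the markers, were picked for naming after their values were seen. Fth1 stood at 3034 and 3002 FPKM in WT and at 2415 and 2272 FPKM in Calu-KO (adjusted p = 0.194, limma).

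Among markers of other cell types the mesothelial gene Msln had the highest level, 32.99 and 30.4 FPKM in WT and 25.2 and 22.1 FPKM in Calu-KO (adjusted p = 0.141, limma). Of 10 endothelial genes only Plvap reached 1 FPKM, at 11.7 and 10.3 FPKM in WT and 10.98 and 6.34 FPKM in Calu-KO (adjusted p = 0.410, limma). Of 8 mesothelial genes Msln and Krt8 did. Krt8, a keratin, fell from 2.75 and 2.28 FPKM to 0.0604 and 0.0699 FPKM (adjusted p = 0.0274, limma). It had 2 reads in each Calu-KO library and passed the filter for testing only through WT. Of 12 epithelial genes only Scgb1a1 reached 1 FPKM, in 1 library, and of 10 lymphocyte genes none did. Of 7 tested fibroblast markers 1 was called, Col3a1, which fell from 38.9 and 39.4 FPKM to 11.9 and 12.2 FPKM (adjusted p = 0.0115, limma). Col1a2 and Col1a1, the chains of type I collagen, lay the other way and were not called. Col1a2 stood at 234 and 229 FPKM in WT and 343 and 394 FPKM in Calu-KO (adjusted p = 0.0721, limma), and Col1a1 at 130.03 and 121 FPKM in WT and 146 and 188 FPKM in Calu-KO (adjusted p = 0.208, limma). Limma-voom called 1 of the 7 higher and 1 lower, against 3.04% and 3.95% of all tested genes. Msln, Col1a1 and Col1a2 were picked for naming after their values were seen.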
